A study of Mus musculus with 24 samples.

Results

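Molecular chaperones were described gene by gene in undifferentiated 129/Sv mouse embryonic stem cells with altered alleles of the huntingtin gene, Htt (Hdh in the labels). Members were the genes with a probe set naming a single gene whose symbol begins with Hspa, Hspb, Hspd, Hspe, Hsph, Hsp90, Dnaja, Dnajb or Dnajc, or is one of the Cct genes, Tcp1, Stip1, Ahsa1, Bag3 or Hsf1. Symbols matched 83 genes, and 59 of them reached a log2 value of 5 on at least 3 of the 24 arrays, out of 9504 measured genes. A gene with several probe sets is represented by the one whose mean across the arrays is highest. The 59 members were 6 HSP70 genes, 2 HSP110 genes, 4 of HSP90 and its cochaperones, 3 classed as HSP70 cochaperones, 3 classed as small heat shock proteins, 8 subunits of the cytosolic chaperonin, 2 of the mitochondrial chaperonin, and 3, 6 and 22 J-proteins of types A, B and C. Classes followed the gene symbols and not the function of each protein. Hspb11 was thus counted as a small heat shock protein and Hspbap1, named for its binding to Hspb1, as an HSP70 cochaperone. The 24 genes below the filter had means of 1.71 to 4.78 and included Hspa1a, Hspa2, Hspa4l, Dnajb2 and Hspb6. Hsf1 and Hsp90ab1 have no single-gene probe set in the annotation used and were not analysed here.

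The knock-out group (6 arrays) is labelled null at Hdh. The knock-in lines (3 arrays each) carry a 7-repeat CAG tract on 1 allele and a second tract on the other. The second tract of Q20 has 16 repeats, that of Q50 45 (replicate 3 is labelled 43), that of Q91 85 and that of Q111 111. The control group (6 arrays) carries 7 repeats on both alleles. All arrays are of total RNA, hybridised singly to Affymetrix whole-transcriptome mouse arrays. Each repeat length is 1 named line, so line and repeat length cannot be told apart. The labels call replicates biological without naming clones or cultures, and a p-value here reflects the spread among these arrays alone, which may be partly technical. A free-text note in the labels names the knock-out and control arrays the other way round; titles and genotype entries were followed throughout, and every direction below rests on them.

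Chaperones bind unfolded or partly folded proteins. HSP70 proteins do so in cycles of ATP hydrolysis that J-proteins start and nucleotide exchange factors end, HSP90 finishes the folding of many signalling proteins, chaperonins enclose their clients in a ring, and small heat shock proteins hold clients without ATP. Their genes are induced through HSF1 in the cytosol and through the unfolded protein response in the endoplasmic reticulum, and several of them limit aggregation of expanded polyglutamine proteins, of which mutant huntingtin is one.

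Htt itself ranged from 6.67 to 7.39 on knock-out arrays, 6.67 to 7.69 on knock-in arrays and 7.45 to 8.25 on control arrays, and since the labels do not place its probe set relative to the deleted part, these levels do not check the null label. All 8 embryonic stem cell markers, Pou5f1, Sox2 and Nanog among them, had group means above 5 in every group. Of these markers, 2 were called higher in the knock-out, and 4, 1, 5 and 4 were called lower in Q20, Q50, Q91 and Q111. The summed linear level of 4 primed epiblast markers was 1393 to 2773 on knock-out arrays. It was 9164 to 14657 for Q20, 6496 to 10145 for Q50, 10826 to 13802 for Q91, 11818 to 13603 for Q111 and 3775 to 5799 for control arrays. The part of these marker differences in the chaperone values was not tested. Of 8 fibroblast feeder markers, 3 were measured, Col1a1, Col1a2 and Thy1. Levels summed over all 8, the unmeasured ones included, were 64 to 83, 155 to 588, 79 to 96, 118 to 509, 325 to 629 and 88 to 179 in the same order of groups. Dcn, Lum and Postn stayed below 5 in every group mean. Replicate 3 of Q50 had a 3′ to 5′ difference of 1.54 for Actb, against 0.75 to 1.03 on the other arrays.

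Chaperone genes were called about as often as other probe sets in every comparison. In the knock-out, 10 of 59 members (16.9%) had an adjusted p below 0.05 in limma's moderated test, Benjamini-Hochberg adjusted over 17980 probe sets, against 14.6% of all probe sets. 2 were higher and 8 lower, against 7.42% and 7.17% of all probe sets. In Q20, 17 members (28.8%) were called, 12 higher and 5 lower, where 25.2% of all probe sets were called, 16.2% higher and 9% lower. In Q50 there were 5 calls (8.47%), 4 higher and 1 lower, against 8% of all probe sets, 5.7% higher and 2.3% lower. Q91 gave 11 calls (18.6%), 5 higher and 6 lower, against 22.2%, with 12.7% higher and 9.49% lower. Q111 gave 19 calls (32.2%), 11 higher and 8 lower, against 25.7%, with 16.2% higher and 9.49% lower. The median log2 change of the 59 members was -0.02 in the knock-out and 0.01, 0.08, -0.00 and 0.00 in Q20, Q50, Q91 and Q111, beside -0.00, 0.02, 0.04, 0.00 and 0.01 over all probe sets. In all, 29 members (49.2%) were called in none of these 5 comparisons, as were 51.3% of all probe sets. As bulk samples, the arrays cannot tell fewer cells of a type from less RNA per cell.

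The balance of higher and lower calls depended on the scaling between arrays. With quantile normalization the splits were 2 higher and 8 lower in the knock-out, 9 and 9 in Q20, 2 and 3 in Q50, 5 and 7 in Q91 and 11 and 12 in Q111. With each array centred on its median they were 2 and 9, 7 and 10, 0 and 3, 4 and 10, and 10 and 16. Centring shifted the median of all probe sets to -0.09 in Q20 and -0.11 in Q111, against 0.02 and 0.01 as deposited, and no called member changed sign under either scaling. Leaving out 1 array moved some counts by more than 1.5 times: Q20 gave 8 and 10 calls without its replicates 1 and 2, Q91 gave 6 and Q111 gave 12 without replicate 2, and Q50 gave 1 to 3 without its replicate 2 or 3 or any control other than replicate 4. The Q50 calls fell to 0 when only Q50 and control arrays entered the fit, with 13 members at an unadjusted p below 0.05 in the fit of all arrays.

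**Figure D1:**
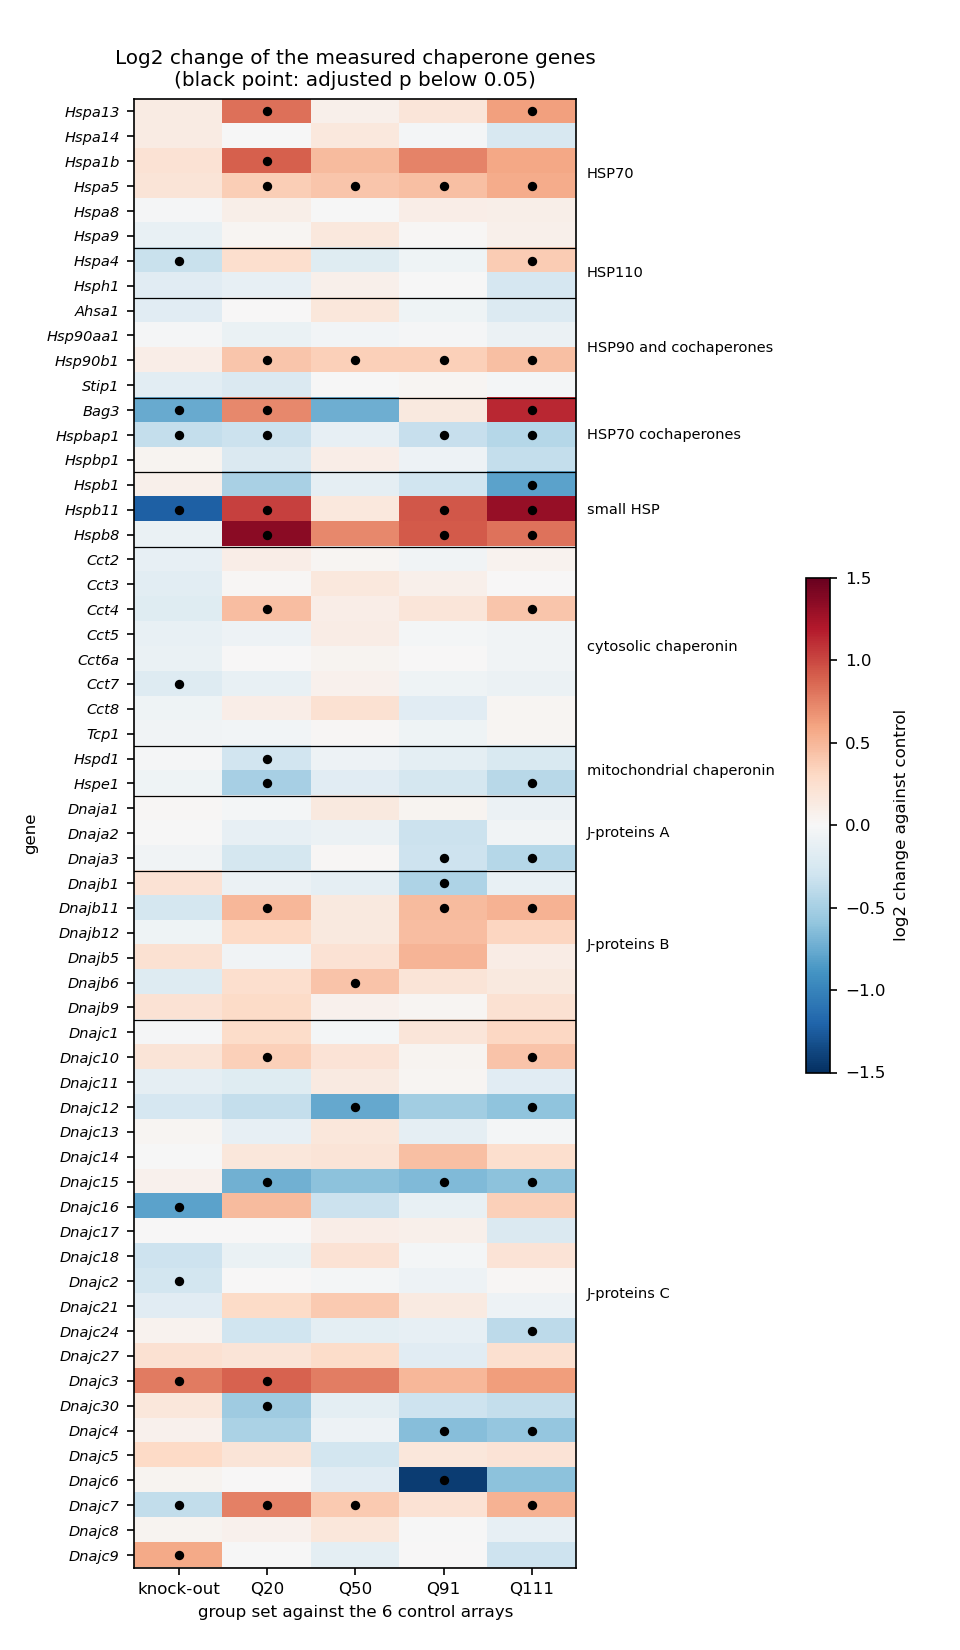
Log2 change of each of the 59 members (rows, by class) in the knock-out and the 4 knock-in lines (columns) against the 6 control arrays, with a black point where the adjusted p was below 0.05. Hspa5 and Hsp90b1 have a point in all 4 line columns, and 29 members have none in any column.

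The listed chaperones of the endoplasmic reticulum, where called against control, were higher. Of 9 measured genes listed for this compartment, 6 rose in Q20, 2 in Q50, 3 in Q91 and 5 in Q111, 1 rose in the knock-out, and none fell. The list need not hold every member of this compartment, and Dnajc16, which is not on it, was called lower in the knock-out. Of all probe sets, 16.2% rose in Q20, 5.7% in Q50, 12.7% in Q91, 16.2% in Q111 and 7.42% in the knock-out. The list was chosen with earlier results of these data known, so setting its shares beside these is not an independent test. The median log2 change of the 9 was 0.13 in the knock-out, 0.38 in Q20, 0.15 in Q50, 0.36 in Q91 and 0.45 in Q111. Hspa5 (BiP), the HSP70 of the endoplasmic reticulum lumen, and Hsp90b1 (Grp94), its HSP90, rose in all 4 lines and were the only members called in all 4, 3.39% of members against 3.32% of all probe sets. The 4 line comparisons share the same control arrays and are not independent of each other.

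Hspa5 had log2 values of 13.47, 13.74 and 13.91 (lowest, median, highest) in knock-out arrays, 13.87, 13.91 and 13.94 in Q20, 13.94, 13.92 and 13.97 in Q50, 14.07, 13.83 and 14.04 in Q91 and 14.16, 14.03 and 14.06 in Q111, against 13.28, 13.57 and 13.80 (lowest, median, highest) in control arrays. All 12 knock-in arrays lay above the highest control array, while the knock-out arrays overlapped the control arrays. The change was 0.37 ± 0.11 (SE) in Q20, 0.42 ± 0.11 in Q50, 0.45 ± 0.11 in Q91 and 0.56 ± 0.11 in Q111, a 1.30- to 1.47-fold rise, with adjusted p of 0.0181, 0.027, 0.00636 and 0.00108 in limma's test. In the knock-out it was 0.19 ± 0.09 (adjusted p = 0.166). Centring ended the Q20 and Q50 calls. The Q20 call was lost without any 1 Q20 array and the Q50 call without Q50 replicate 2 or 3 or control replicate 6, whereas the Q91 and Q111 calls held in every alternative run. A second probe set of Hspa5 was called higher in all 4 lines too, and the remaining, dimmer one was called in none.

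Hsp90b1 averaged 14.17 ± 0.17 in knock-out arrays (SD, n = 6), 14.49 ± 0.04 in Q20, 14.43 ± 0.17 in Q50, 14.43 ± 0.04 in Q91, 14.52 ± 0.10 in Q111 (n = 3 each) and 14.07 ± 0.13 in control arrays (n = 6). Its changes of 0.41, 0.36, 0.35 and 0.45 in the lines, in order of repeat length, were called on this probe set, whereas its second probe set had a log2 difference of 0.13, 0.10, 0.14 and 0.24 and was called in none. The Q50 call was also lost under either scaling and without Q50 replicate 1 or 2 or any of control replicates 3 to 6, and the Q91 call with centring or without Q91 replicate 3.

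Dnajb11 (ERdj3), a lumenal J-protein that works with BiP, was 8.29, 8.44 and 8.64 (lowest, median, highest) in knock-out arrays, 9.33, 9.15 and 9.18 in Q20, 8.66, 9.08 and 8.87 in Q50, 9.26, 9.29 and 9.04 in Q91 and 9.39, 9.12 and 9.21 in Q111, against 8.50, 8.73 and 8.88 (lowest, median, highest) in control arrays. Every array of Q20, Q91 and Q111 lay above every control array, and the knock-out arrays overlapped only the lowest control array. The rise was 0.50, 0.47 and 0.52 in Q20, Q91 and Q111 (SE 0.11 each, adjusted p of 0.00268, 0.00396 and 0.00176 in limma's test), and these calls held in every alternative run. In Q50 the change was 0.15 (adjusted p = 0.431) and in the knock-out -0.26 (adjusted p = 0.0561).

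Hspa13 (Stch), an atypical HSP70 of microsomes, rose by 0.83 ± 0.17 in Q20 and 0.61 ± 0.17 in Q111, and both of its other probe sets were called higher in the same lines. Dnajc10 (ERdj5), a J-protein that reduces disulfides, rose by 0.36 ± 0.11 in Q20 and 0.43 ± 0.11 in Q111, and both of its other probe sets were again called higher. Without Q111 replicate 1 the Q111 calls of Hspa13 and Dnajc10 were lost, without Q111 replicate 2 that of Hspa13, and without Q20 replicate 1 or 2 the Q20 call of Dnajc10. Dnajb9, Dnajc1 and Dnajb12, the other measured genes of the list, were called in no comparison with control.

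Dnajc3 (p58IPK), a lumenal cochaperone of BiP and inhibitor of the kinase PERK, had 9.16, 9.38 and 9.59 (lowest, median, highest) in knock-out arrays, 9.53, 9.55 and 9.38 in Q20, 8.45, 9.17 and 10.48 in Q50, 9.21, 9.06 and 9.03 in Q91 and 9.58, 9.53 and 8.56 in Q111, against 7.89, 8.64 and 8.98 in control arrays. The knock-out, Q20 and Q91 arrays did not overlap the control arrays, and Q50 alone spanned more than the whole control range. The change was 0.78 ± 0.25 in the knock-out (adjusted p = 0.0399) and 0.89 ± 0.31 in Q20 (adjusted p = 0.0389). The knock-out call was lost without any 1 knock-out array or any of control replicates 1 to 4, the Q20 call without any 1 Q20 array or the same controls, and a second Dnajc3 probe set had -0.02 in the knock-out and rose by 0.71 in Q20.

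**Figure D2:**
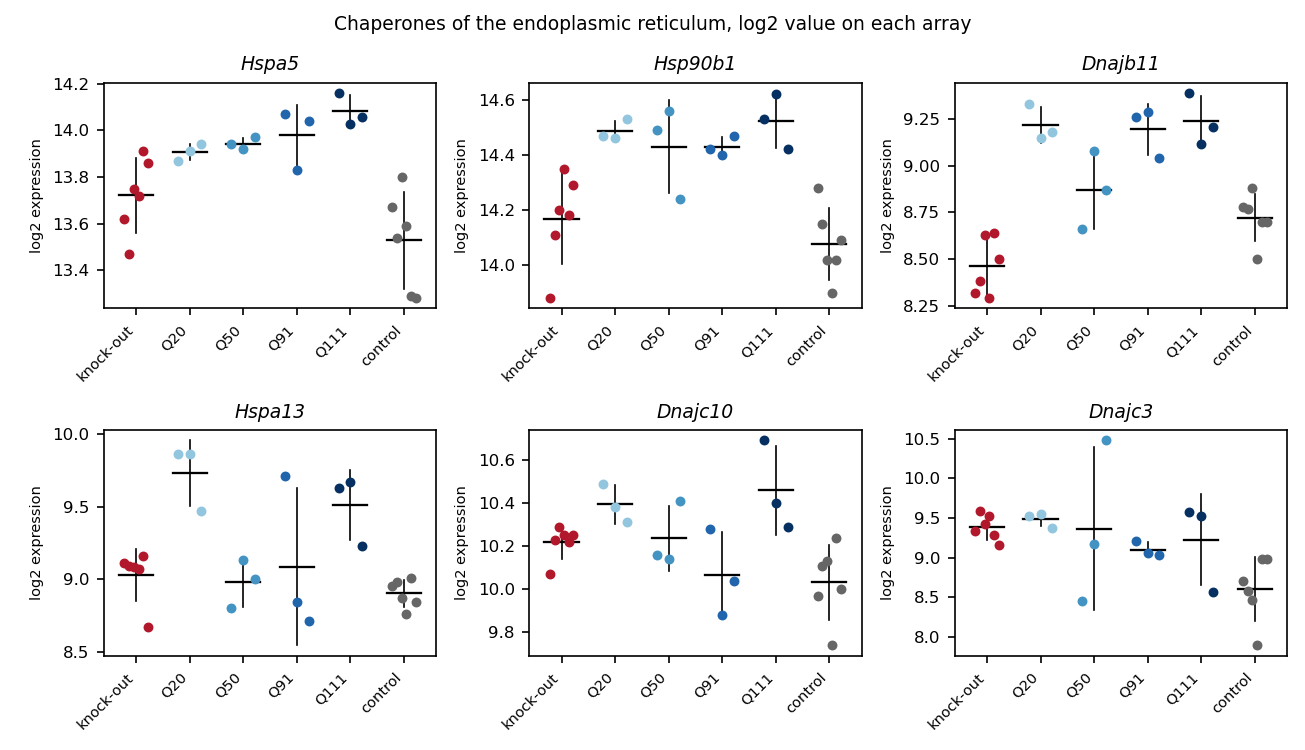
Log2 value of 6 chaperones of the endoplasmic reticulum on each array (points), by group, with the group mean (horizontal line) and ±1 SD (vertical line). Hspa5 lies above the highest control array (13.80) on all 12 knock-in arrays, and Dnajb11 separates Q20, Q91 and Q111 from control.

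Promoters are shown for the members of this compartment that hold the ER stress element, the motif through which ATF6 and NF-Y act on such genes. The motif searched was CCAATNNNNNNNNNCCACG on either strand, in the 250 bases before the start of transcription of RefSeq promoters of GRCm38.p6. It was found in 37 of 32851 promoters (0.113%) and in those of 3 of the 48 members with a promoter in the table, Hspa5, Hsp90b1 and Dnajc3. The stretches below run 5′ to 3′ along the strand of the gene, with the motif or its reverse complement in capitals.
Hspa5: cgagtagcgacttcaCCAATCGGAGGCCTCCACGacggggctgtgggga
Dnajc3: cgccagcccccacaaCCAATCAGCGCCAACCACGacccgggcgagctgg
Hsp90b1: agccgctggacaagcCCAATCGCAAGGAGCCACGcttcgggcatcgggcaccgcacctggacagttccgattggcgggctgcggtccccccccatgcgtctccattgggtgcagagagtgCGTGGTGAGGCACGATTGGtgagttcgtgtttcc
The Hspa5 stretch is chr2:34772010-34772058 (plus strand), the Dnajc3 stretch chr14:118937812-118937860 (plus strand) and the Hsp90b1 stretch chr10:86705518-86705671 (minus strand). The motif lies 65 to 47 bases before the start in Hspa5 and 105 to 87 in Dnajc3, and Hsp90b1 holds a copy in each orientation, 212 to 194 and 107 to 89 bases before its start. Dnajb11, Hspa13 and Dnajc10 are not among the promoters with these letters, which says nothing of the factors that act on them. A match is a description of the letters and not evidence of binding.

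Most genes of the heat shock response were uncalled in most groups, as were most probe sets. The share of all probe sets called was 14.6% in the knock-out, 25.2% in Q20, 8% in Q50, 22.2% in Q91 and 25.7% in Q111. Of 12 measured genes of a list of HSF1-inducible chaperones, 1 fell in the knock-out, 2 rose and 2 fell in Q20, none was called in Q50, 1 fell in Q91, and 1 rose and 2 fell in Q111. These were Bag3 in the knock-out, Hspa1b and Bag3 (higher) and Hspd1 and Hspe1 (lower) in Q20, Dnajb1 in Q91, and Bag3 (higher) and Hspb1 and Hspe1 (lower) in Q111. Hspd1 and Hspe1 are mitochondrial, and the other 10 are cytosolic. The median change of the 12 was -0.02 in the knock-out and -0.09, -0.02, -0.01 and -0.10 in the 4 lines. Hspa8 (Hsc70), the constitutive cytosolic HSP70, was 16.58, 16.65 and 16.72 (lowest, median, highest) in knock-out arrays, 16.67, 16.79 and 16.81 in Q20, 16.80, 16.61 and 16.60 in Q50, 16.82, 16.71 and 16.78 in Q91 and 16.77, 16.75 and 16.75 in Q111, against 16.60, 16.69 and 16.73 in control arrays. The groups overlapped in the knock-out and in Q20, Q50 and Q91, and the highest value anywhere in the table was 17.19, so Hspa8 sits close to the top of the scale. The dimmest of its 4 probe sets (mean 10.18) was called higher in Q20 (0.67) and Q50 (0.85).

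Hsp90aa1, the stress-responsive cytosolic HSP90, was 16.09, 16.30 and 16.39 in knock-out arrays, 16.08, 16.24 and 16.26 in Q20, 16.39, 16.24 and 16.13 in Q50, 16.16, 16.29 and 16.38 in Q91 and 16.21, 16.23 and 16.17 in Q111, against 16.20, 16.30 and 16.34 in control arrays. All groups overlapped the control arrays, with changes of -0.10 to -0.01. Stip1, which links HSP70 to HSP90, had a log2 difference of -0.15 in the knock-out (11.83, 11.95 and 12.06 against 12.03, 12.07 and 12.21 in control, lowest, median and highest) and by -0.22 in Q20 (11.94, 11.70 and 11.99), neither call reached (adjusted p of 0.126 and 0.0546 in limma's test). In Q50, Q91 and Q111 it ran from 11.98 to 12.21. Ahsa1, which stimulates the HSP90 ATPase, and Dnaja1, a cytosolic J-protein, were also uncalled in every comparison with control.

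Hsph1 (Hsp105), an HSP110 that exchanges the nucleotide of HSP70, was 12.05, 12.16 and 12.38 in knock-out arrays, 12.24, 12.08 and 12.34 in Q20, 12.46, 12.42 and 12.35 in Q50, 12.13, 12.26 and 12.61 in Q91 and 12.28, 12.07 and 11.93 in Q111. The control arrays split for this gene: replicates 1 to 4 lay at 12.45 to 12.58 and replicates 5 and 6 at 11.89 and 12.01, so the control group alone spanned most of the range of the study, and no group was called. The same 2 control arrays were the lowest of the 6 for Hspa5 (13.29 and 13.28) and Dnajb6 (12.35 and 12.20).

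Hspa1b, the classic heat-inducible HSP70, was 8.24, 8.81 and 9.0 (lowest, median, highest) in knock-out arrays, 9.63, 9.84 and 8.64 in Q20, 8.78, 9.32 and 8.74 in Q50, 8.87, 9.76 and 9.02 in Q91 and 9.47, 9.44 and 8.25 in Q111, against 8.28, 8.38 and 9.09 (lowest, median, highest) in control arrays. Replicate 3 of Q20 and of Q111 was the lowest of its line, and the highest control array reached into each line's range. The rise was called in Q20 alone (0.90 ± 0.29, adjusted p = 0.0274), and that call was lost under either scaling and without Q20 replicate 1 or 2. Changes in Q50, Q91 and Q111 were 0.47, 0.74 and 0.58 (adjusted p of 0.323, 0.07 and 0.15), and 2 further probe sets gave the same calls.

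Dnajb1 (Hsp40), the main heat-inducible J-protein partner of HSP70, was 11.16, 11.22 and 11.34 (lowest, median, highest) in knock-out arrays, 11.13, 11.03 and 10.60 in Q20, 11, 11.13 and 10.49 in Q50, 10.63, 10.62 and 10.41 in Q91 and 10.99, 11.10 and 10.62 in Q111, against 10.98, 11.01 and 11.06 in control arrays. The Q91 arrays lay below all control arrays, and replicate 3 was the lowest array of each line. The fall in Q91 was -0.46 ± 0.13 (adjusted p = 0.0139) and was lost without Q91 replicate 3. In the knock-out every array lay above every control array, and the change of 0.22 was not called (adjusted p = 0.174), though a second probe set was called higher (0.64, adjusted p = 0.0028).

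Hspb1 (Hsp25), the inducible small heat shock protein, was 13.20, 13.49 and 13.75 (lowest, median, highest) in knock-out arrays, 12.94, 12.81 and 12.98 in Q20, 12.75, 13.20 and 13.87 in Q50, 12.44, 13.60 and 13.27 in Q91 and 12.61, 12.54 and 12.65 in Q111, against 13.21, 13.37 and 13.78 (lowest, median, highest) in control arrays. Q111 and Q20 lay below all control arrays. Only the Q111 fall was called (-0.80 ± 0.21, adjusted p = 0.00852), and it held in every alternative run. The Q20 change of -0.49 was not (adjusted p = 0.0976), though a second probe set was (-0.61), and the knock-out arrays overlapped the control arrays.

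**Figure D3:**
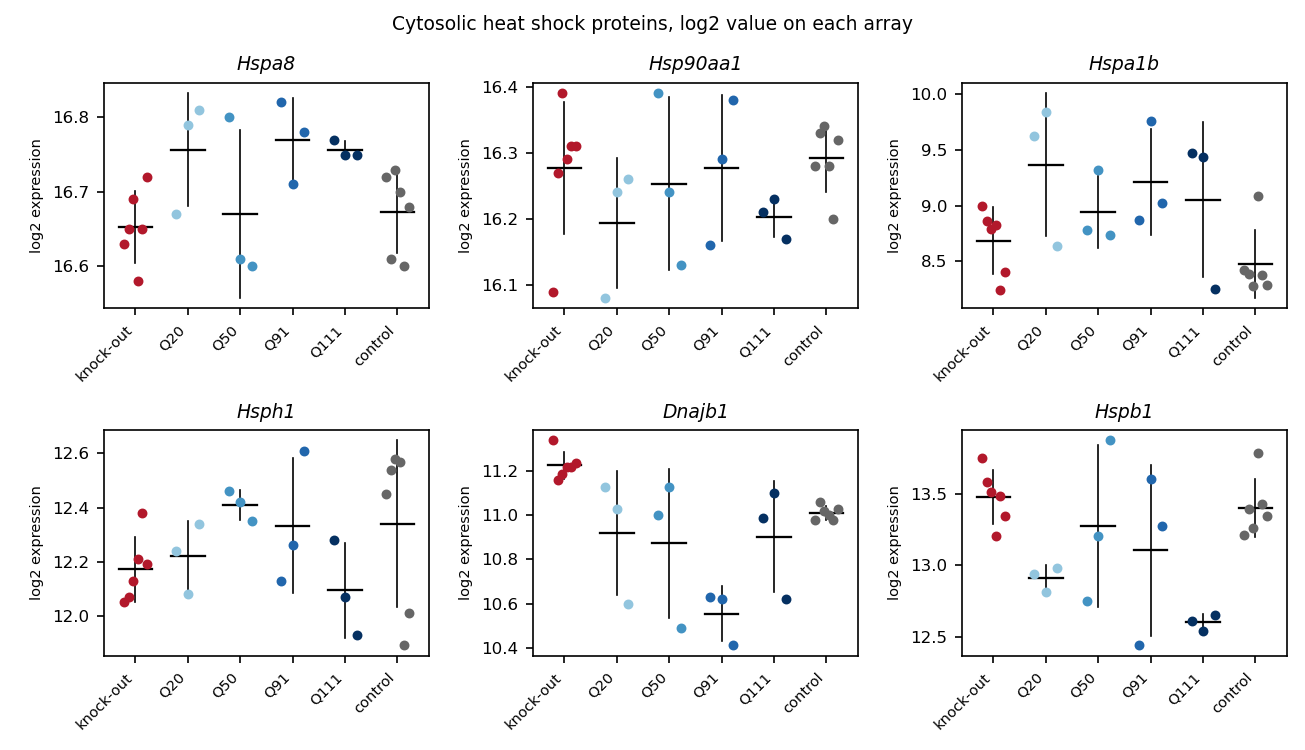
Log2 value of 6 cytosolic heat shock genes on each array (points), by group, with the group mean (horizontal line) and ±1 SD (vertical line). Hspa8 and Hsp90aa1 overlap between the knock-out and control groups, Hspb1 in Q111 lies at 12.54 to 12.65 below all control arrays, and Hsph1 splits the control arrays.

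Hspb11, Bag3 and Dnajc7 were called in opposite directions in the knock-out and in at least 1 knock-in line. Hspb11, classed with the small heat shock proteins by its symbol alone, is also known as the intraflagellar transport protein Ift25. It had 4.78, 5.07 and 5.49 (lowest, median, highest) in knock-out arrays, 7.66, 7.78 and 6.60 in Q20, 6.13, 7.05 and 6.26 in Q50, 7.37, 7.70 and 6.70 in Q91 and 7.60, 7.68 and 7.60 in Q111, against 5.73, 6.25 and 6.78 in control arrays. All knock-out arrays lay below all control arrays and all Q111 arrays above them. The change was -1.22 ± 0.22 in the knock-out (0.43-fold, adjusted p = 0.000959) and 1.02, 0.93 and 1.30 in Q20, Q91 and Q111 (adjusted p of 0.00865, 0.0163 and 0.00136). The knock-out and Q111 calls held in every alternative run, the Q20 call was lost without Q20 replicate 1 or 2, and the Q91 call without Q91 replicate 1 or 2. Between knock-out and the mean of the 4 lines the difference was -2.08 ± 0.19 (adjusted p = 4.19e-08).

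Bag3, a nucleotide exchange factor of HSP70 that directs clients to autophagy, had 6.52, 7.15 and 7.32 in knock-out arrays, 8.64, 8.0 and 8.98 in Q20, 7.49, 7.14 and 6.60 in Q50, 8.44, 8.04 and 7.40 in Q91 and 9.15, 8.76 and 8.93 in Q111, against 7.37, 7.90 and 8.13 in control arrays. Knock-out arrays lay below and Q111 arrays above all control arrays, and the other lines overlapped them or, for replicates 2 and 3 of Q50, lay below. Bag3 fell by 0.76 ± 0.20 in the knock-out (adjusted p = 0.0167) and rose by 0.73 ± 0.25 in Q20 (adjusted p = 0.0382) and 1.13 ± 0.25 in Q111 (adjusted p = 0.00231). The Q50 change was -0.74 (adjusted p = 0.0727). The Q20 call was lost under either scaling and without Q20 replicate 1 or 3 or control replicate 1, 3 or 4. Bag3 has 1 measured probe set.

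Hspb8 (Hsp22), which forms a complex with Bag3, was dim and passed the filter through the knock-in arrays. It had 4.01, 4.10 and 4.79 (lowest, median, highest) in knock-out arrays, 6.24, 5.92 and 5.05 in Q20, 5.27, 5.11 and 4.92 in Q50, 5.16, 5.89 and 4.84 in Q91 and 5.11, 5.15 and 5.33 in Q111, against 4.03, 4.30 and 4.88 in control arrays. Of the 12 knock-in arrays, 11 lay above the highest control array. It was called higher in Q20 (1.36 ± 0.26, adjusted p = 0.000731), Q91 (0.92 ± 0.26) and Q111 (0.81 ± 0.26), and its second probe set was called in the same lines. The Q91 call was lost without Q91 replicate 2 and the Q111 call without any 1 Q111 array. With no filter the Q111 call was lost as well. Every knock-out and control array was below the filter, so Hspb8 became a member only through the arrays in which it is high. Its calls and the separation of its arrays are therefore not independent of that selection, and its folds are uncertain. It is still counted among the calls of these lines.

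Dnajc7 (Tpr2), a J-protein that carries clients between HSP70 and HSP90, had 11.50, 11.70 and 11.90 in knock-out arrays, 12.82, 12.75 and 12.87 in Q20, 12.39, 12.41 and 12.56 in Q50, 12.62, 11.94 and 12.28 in Q91 and 12.64, 12.51 and 12.57 in Q111, against 11.94, 12.02 and 12.31 in control arrays. Every array of Q20, Q50 and Q111 lay above every control array and every knock-out array below. The change was -0.36 ± 0.10 in the knock-out (adjusted p = 0.0149), 0.75 ± 0.12 in Q20 (adjusted p = 0.000153), 0.39 ± 0.12 in Q50 (adjusted p = 0.0445) and 0.52 ± 0.12 in Q111 (adjusted p = 0.00311). The Q20 and Q111 calls held in every alternative run. The Q50 call was lost under either scaling and without any 1 Q50 array or any control array other than replicate 4.

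Hspa4 (Apg-2), the other measured HSP110, fell in the knock-out (-0.33 ± 0.09, adjusted p = 0.0162) and rose in Q111 (0.38 ± 0.11, adjusted p = 0.0141) on its brightest probe set. Its other probe sets, dimmer, were called higher in the knock-out (0.42 and 0.67), so the direction in the knock-out is not settled by these data. In Q111 they had a log2 difference of 0.25 (not called) and 1.11 (called), in Q20 both were called higher (0.59 and 1.39), and the Q111 call on the brightest was lost with centring and without Q111 replicate 3.

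**Figure D4:**
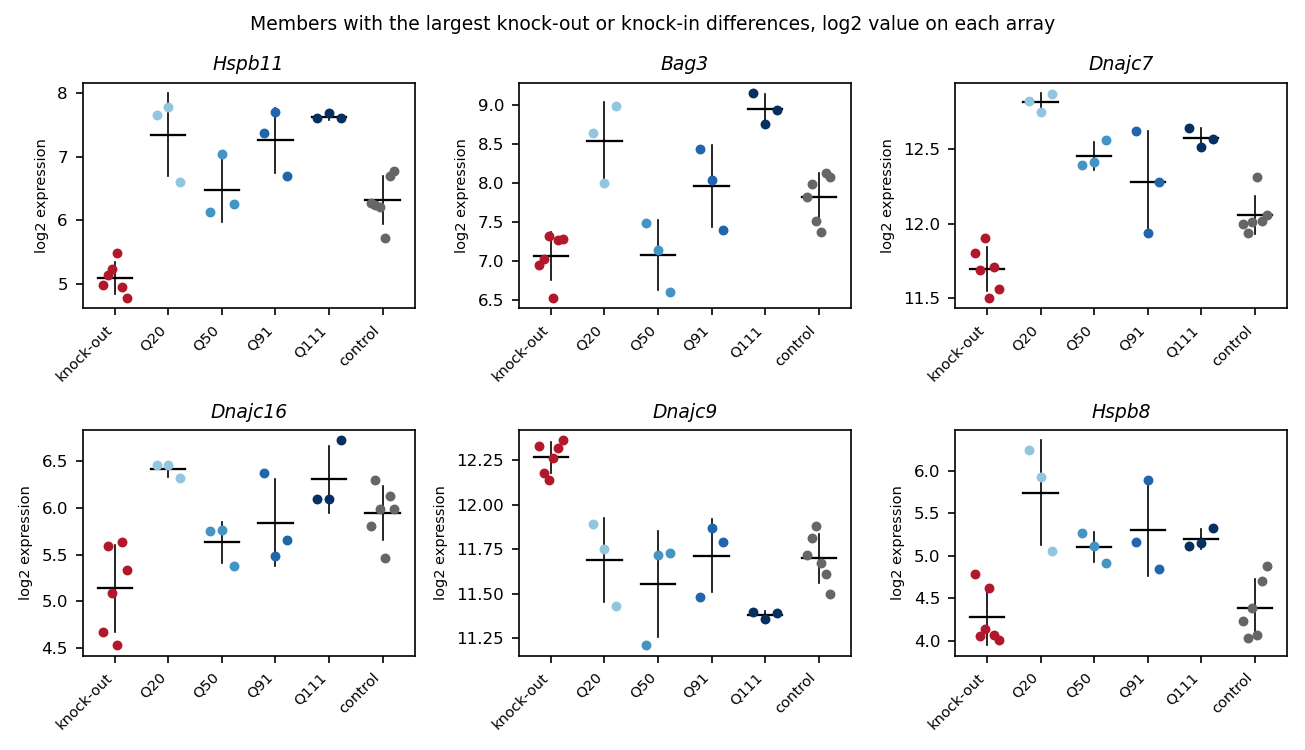
Log2 value of 6 members on each array (points), by group, with the group mean (horizontal line) and ±1 SD (vertical line). Hspb11, Bag3 and Dnajc7 are below control in the knock-out and above it in Q111, and Dnajc16 and Dnajc9 differ in the knock-out. Hspb8, which passed the filter only through the knock-in arrays, is higher in the lines, where 11 of 12 arrays lie above the highest control array (4.88).

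Among the J-proteins, Dnajc9, known in human cells as a J-protein for histones, had 12.14, 12.29 and 12.36 (lowest, median, highest) in knock-out arrays, 11.89, 11.75 and 11.43 in Q20, 11.21, 11.72 and 11.73 in Q50, 11.48, 11.87 and 11.79 in Q91 and 11.40, 11.36 and 11.39 in Q111, against 11.50, 11.70 and 11.88 in control arrays. The knock-out arrays lay above all control arrays. It rose by 0.57 ± 0.10 (1.48-fold, adjusted p = 0.000844) in the knock-out and was called in no line. The 3 Q111 arrays lay below all control arrays, with a change of -0.32 that did not pass (adjusted p = 0.0637). Dnajc16 was 4.53, 5.22 and 5.63 in knock-out arrays, 6.46, 6.46 and 6.32 in Q20, 5.75, 5.76 and 5.38 in Q50, 6.37, 5.49 and 5.66 in Q91 and 6.10, 6.09 and 6.72 in Q111, against 5.46, 5.99 and 6.30 in control arrays. Knock-out and control arrays overlapped. It fell by 0.80 ± 0.20 in the knock-out (adjusted p = 0.00912), on a probe set near the filter, while a second one was not called (-0.17), and it was called in no line.

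Dnajc6 (auxilin), which uncoats clathrin vesicles, had 8.67, 9.11 and 9.63 (lowest, median, highest) in knock-out arrays, 8.87, 8.55 and 9.72 in Q20, 9.19, 8.27 and 9.16 in Q50, 8.03, 7.11 and 7.71 in Q91 and 8.44, 8.61 and 8.23 in Q111, against 8.64, 8.93 and 9.62 in control arrays. The Q91 and Q111 arrays lay below all control arrays. The fall in Q91 was -1.42 ± 0.28 (0.37-fold, adjusted p = 0.00108), the largest of any member in a knock-in line, and a second probe set gave -1.46 (adjusted p = 0.0081). The change in Q111 was -0.61 (adjusted p = 0.117). The Q91 call held in every alternative run.

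Dnajc12, known in human as the cochaperone of phenylalanine hydroxylase, had 7.10, 7.20 and 7.79 (lowest, median, highest) in knock-out arrays, 7.32, 7.10 and 7.27 in Q20, 6.31, 6.64 and 7.53 in Q50, 7.07, 7.05 and 7.07 in Q91 and 6.89, 6.95 and 7.12 in Q111, against 7.17, 7.58 and 8.12 in control arrays. The Q91 and Q111 arrays lay below all control arrays, and Q50 replicate 3 within them. The falls in Q50 (-0.77 ± 0.22, adjusted p = 0.0357) and Q111 (-0.61 ± 0.22, adjusted p = 0.046) were called, and each was lost without any of control replicates 1 to 3 and under further single omissions. Dnajc4 had 6.48, 6.81 and 6.91 in knock-out arrays, 6.13, 6.14 and 6.37 in Q20, 6.48, 6.06 and 7.31 in Q50, 6.16, 5.91 and 6.09 in Q91 and 6.24, 6.00 and 6.08 in Q111, against 6.37, 6.72 and 6.94 in control arrays. The Q91 and Q111 arrays lay below all control arrays. In these lines it fell by 0.64 ± 0.19 and 0.58 ± 0.19 (adjusted p of 0.0184 and 0.0264), the first lost without Q91 replicate 2 and the second without Q111 replicate 2 or 3 or control replicate 2.

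Dnajb6, which keeps polyglutamine proteins from aggregating, had 12.27, 12.39 and 12.49 (lowest, median, highest) in knock-out arrays, 12.72, 12.74 and 13.02 in Q20, 12.93, 12.95 and 13.12 in Q50, 12.62, 12.69 and 12.98 in Q91 and 12.72, 12.64 and 12.79 in Q111, against 12.20, 12.61 and 12.84 in control arrays. The Q50 arrays lay above all control arrays. The rise in Q50 was called (0.43 ± 0.13, adjusted p = 0.0421) but was lost in 4 of 6 fits without a control array, when centred, and without Q50 replicate 2 or 3. In Q20 its brightest probe set had a log2 difference of 0.26 (adjusted p = 0.147) and the other 3 were called higher, by 0.45, 0.44 and 1.82. In the knock-out the brightest had a log2 difference of -0.19 (adjusted p = 0.235) and 1 of the other 3 was called lower (-0.46). Of 15 measured genes of a list of polyglutamine modifiers, 2 fell in the knock-out, 2 rose in Q20, 1 rose in Q50, 1 fell in Q91, and 2 rose and 1 fell in Q111. Of all probe sets, 14.6%, 25.2%, 8%, 22.2% and 25.7% were called in the same order of groups. The medians of the list were -0.12 in the knock-out and 0.01, 0.07, -0.03 and 0.03 in the lines.

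Other single calls were Dnajc2, a ribosome-associated J-protein, which fell by 0.28 ± 0.07 in the knock-out, and Dnajc24, which serves diphthamide synthesis and fell by 0.39 ± 0.12 in Q111. The other measured probe set of each had the same sign but was not called there. Hspbap1, named for its binding to Hspb1, fell in the knock-out (-0.36) and in Q20, Q91 and Q111 (-0.32, -0.35 and -0.43) on its brightest probe set. Of its 2 other probe sets, neither was called in the knock-out, where only 1 shared the sign, or in Q20 or Q91, and 1 was called lower in Q111. The Q111 call of Hspbap1 held in every alternative run. The Dnajc24 call was lost without Q111 replicate 1 or 2, the Q20 call of Hspbap1 without any 1 Q20 array or control replicate 2 or 3, and its Q91 call without Q91 replicate 2. Dnaja2 and Dnajc5 were called in no comparison with control, and the mitochondrial J-proteins are given with their compartment.

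The cytosolic chaperonin, the ring that folds actin and tubulin and that binds the huntingtin N terminus, had few calls against control. All 8 subunits had changes below 0 in the knock-out, from -0.19 to -0.06, but only Cct7 was called (-0.19 ± 0.06, adjusted p = 0.0435), and that call was lost without any 1 knock-out array or any control array other than replicate 4. In the lines Cct4 alone was called, higher in Q20 (0.46 ± 0.09, adjusted p = 0.00124) and in Q111 (0.42 ± 0.09, adjusted p = 0.00226), in every alternative run. It averaged 15.27 ± 0.09 in knock-out arrays (SD, n = 6), 15.92 ± 0.12 in Q20, 15.56 ± 0.06 in Q50, 15.64 ± 0.23 in Q91, 15.88 ± 0.05 in Q111 (n = 3 each) and 15.46 ± 0.09 in control arrays (n = 6). The next 2 Cct4 probe sets gave 0.46 and 0.30 in Q20 and 0.43 and 0.32 in Q111, all called. The other 7 subunits had a log2 difference of -0.17 to 0.23 in the lines.

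Mitochondrial members, where called against control, were lower, with calls in 3 of the 4 knock-in lines; Grpel2, a mitochondrial cochaperone that is not a member, was called higher in Q20 and Q91. All these comparisons share the 6 control arrays. The genes of this compartment were listed with earlier results of these data known, so their shares beside those of all probe sets are not an independent test. Of 7 measured genes of this compartment, 4 fell in Q20, none in Q50, 2 in Q91 and 3 in Q111, none rose, and none was called in the knock-out, where 9% of all probe sets fell in Q20, 2.3% in Q50, 9.49% in Q91 and in Q111 and 7.17% in the knock-out. The medians were -0.05 in the knock-out and -0.29, -0.08, -0.27 and -0.36 in Q20, Q50, Q91 and Q111. Hspa9 and Dnajc11 were called in no comparison with control, and Dnajc11 had differences of -0.18, 0.14, 0.03 and -0.17 in Q20, Q50, Q91 and Q111. Hspa9 (mortalin), the mitochondrial HSP70, was 13.40, 13.52 and 13.58 (lowest, median, highest) in knock-out arrays, 13.57, 13.68 and 13.67 in Q20, 13.87, 13.76 and 13.69 in Q50, 13.48, 13.69 and 13.73 in Q91 and 13.68, 13.65 and 13.74 in Q111, against 13.51, 13.62 and 13.68 in control arrays. Its changes ran from -0.11 in the knock-out to 0.16 in Q50, with none called.

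Hspe1 (Hsp10), the lid of the mitochondrial chaperonin, had 14.19, 14.25 and 14.50 (lowest, median, highest) in knock-out arrays, 13.84, 13.92 and 13.81 in Q20, 14.27, 13.98 and 14.29 in Q50, 14.29, 13.90 and 14.05 in Q91 and 13.87, 13.80 and 14.13 in Q111, against 14.13, 14.40 and 14.52 in control arrays. Q20 lay below all control arrays, and Q111 at or below the lowest of them. It fell by 0.49 ± 0.11 in Q20 (adjusted p = 0.00296), in every alternative run, and by 0.42 ± 0.11 in Q111 (adjusted p = 0.00864), lost without Q111 replicate 2, and a second probe set gave -0.50 and -0.44, both called.

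Hspd1 (Hsp60), the ring itself, had 14.97, 15.04 and 15.22 (lowest, median, highest) in knock-out arrays, 14.81, 14.79 and 14.78 in Q20, 15.24, 14.85 and 14.92 in Q50, 15.05, 14.83 and 14.92 in Q91 and 14.79, 14.74 and 15.01 in Q111, against 14.87, 15.12 and 15.22 in control arrays. Q20 lay below all control arrays. The fall in Q20 was -0.29 ± 0.10 (adjusted p = 0.0399) and was lost without any 1 Q20 array or any of control replicates 1 to 4. The changes in Q50, Q91 and Q111 were -0.08, -0.15 and -0.23, none called. As for Hsph1, control replicates 5 and 6 were the lowest of the controls for Hspd1 (14.97 and 14.87) and Hspe1 (14.13 and 14.19).

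Dnajc15 (MCJ), a J-protein of the inner mitochondrial membrane, had 10.35, 10.46 and 10.86 (lowest, median, highest) in knock-out arrays, 9.88, 9.68 and 9.66 in Q20, 9.71, 9.59 and 10.26 in Q50, 10.39, 9.49 and 9.52 in Q91 and 9.58, 9.71 and 10.25 in Q111, against 10.21, 10.42 and 10.79 in control arrays. In Q50, Q91 and Q111, 1 array of 3 reached the control range, and in Q20 none did. The fall was 0.72 ± 0.20 in Q20 (adjusted p = 0.0103), in every alternative run, and -0.66 and -0.62 in Q91 and Q111 (adjusted p of 0.0183 and 0.0243), lost without Q91 replicate 2 or 3 and without Q111 replicate 1 or 2 or control replicate 2. The Q50 change of -0.61 was not called (adjusted p = 0.0581). Dnaja3 (Tid1), the partner of mortalin, fell by 0.31 ± 0.10 in Q91 and 0.43 ± 0.10 in Q111, the second in every alternative run. Dnajc30 had 7.69, 8.18 and 8.30 in knock-out arrays, 7.40, 7.14 and 7.63 in Q20, 7.39, 7.79 and 8.17 in Q50, 7.29, 7.82 and 7.75 in Q91 and 7.62, 7.37 and 7.70 in Q111, against 7.77, 7.90 and 8.11 in control arrays. It fell by 0.53 ± 0.17 in Q20, where no array reached the control range (adjusted p = 0.0255), lost without Q20 replicate 1 or 2 or control replicate 3. The Q91 call of Dnaja3 was lost without control replicate 1, 2 or 5 or Q91 replicate 1 or 2.

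**Figure D5:**
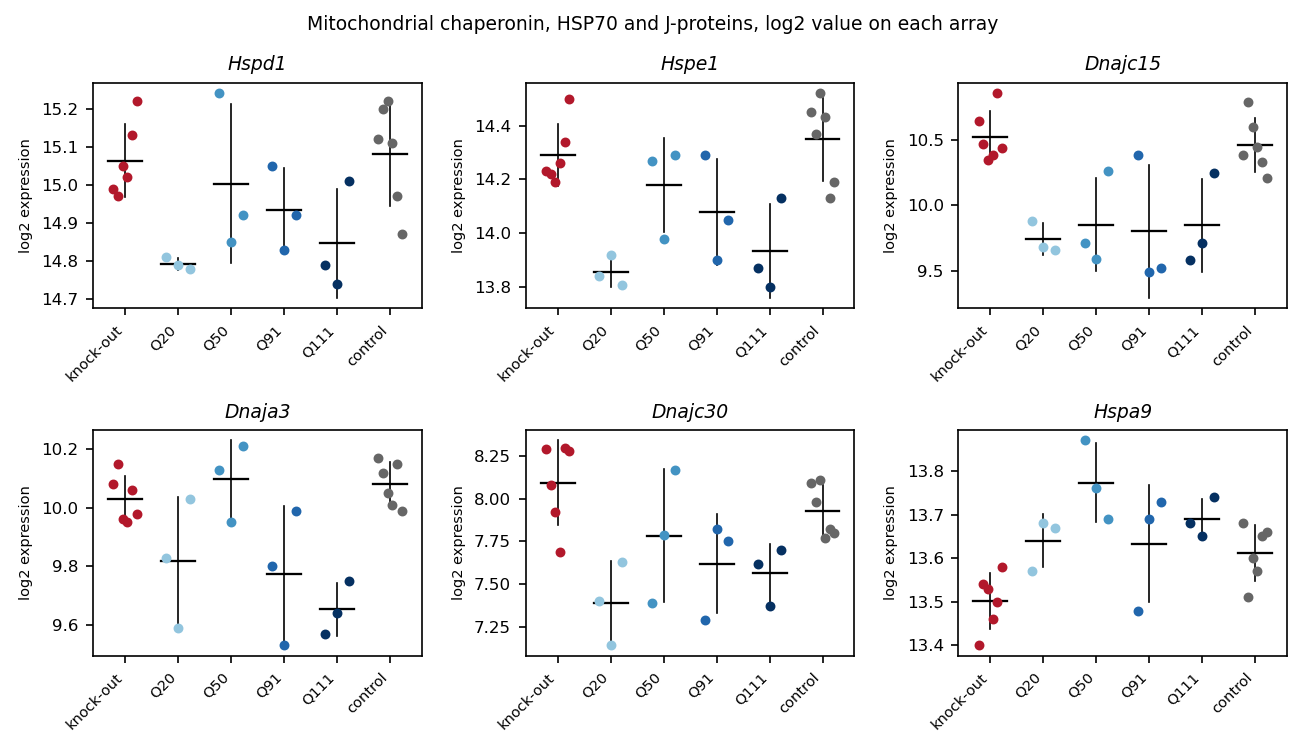
Log2 value of 6 mitochondrial chaperone genes on each array (points), by group, with the group mean (horizontal line) and ±1 SD (vertical line). All 3 Q20 arrays lie below the control arrays for Hspd1, Hspe1, Dnajc15 and Dnajc30, and Hspa9 was called in no group.

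Promoters are shown for the members that hold a heat shock element of 3 units, the motif bound by HSF1. The motif searched was GAANNTTCNNGAA on either strand, in the same promoters. It was found in 153 of 32851 promoters (0.466%) and in those of 3 of the 48 members with a promoter in the table, Hspd1, Hspe1 and Dnajb6. The absence of these exact letters from the other promoters says nothing of the factors that act on those genes. A match, again, is not evidence of binding. Hspd1 and Hspe1 lie head to head, 216 bases apart between the Hspe1 start and the Hspd1 start whose promoter holds the motif, so they share 1 stretch, read here along Hspe1. Capitals mark the run of overlapping units in Hspe1 and the motif in Dnajb6.
Hspe1: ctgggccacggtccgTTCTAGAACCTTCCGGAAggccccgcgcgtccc
Dnajb6: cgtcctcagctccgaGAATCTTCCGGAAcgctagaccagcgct
The first is chr1:55088044-55088091 and the second chr5:29735837-29735879, both on the plus strand. The motif lies 46 to 34 bases before the start of Dnajb6. Hspe1 and Hspd1, which share the stretch, both fell in Q20, and Dnajb6, which holds the same motif, was not called there on its brightest probe set (0.26) and was called higher on the other 3.

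Genes of the chaperone pathways outside the family symbols were counted from a list of 40, of which 37 were measured. Of all probe sets, 14.6% were called in the knock-out, 25.2% in Q20, 8% in Q50, 22.2% in Q91 and 25.7% in Q111. Of the 37 genes, none rose and 2 fell in the knock-out, 5 rose and 6 fell in Q20, 1 fell in Q50, 4 rose and 2 fell in Q91, and 4 rose and 3 fell in Q111. Among those of the endoplasmic reticulum, Canx, a lectin chaperone of glycoproteins, rose by 0.78, 0.58 and 0.77 in Q20, Q91 and Q111, Hyou1, the exchange factor of BiP, by 0.33 and 0.37 in Q20 and Q111, and Pdia6, a disulfide isomerase, by 0.44 and 0.37. Pdia3 rose in Q91 alone (0.50), and Calr, Pdia4, Sil1 and Sdf2l1 were called in no line, with Calr at 0.13, 0.36, 0.05 and 0.08 and Sdf2l1 at -0.37, -0.25, -0.06 and -0.24 in order of repeat length. Of the mitochondrial genes of this list, Grpel2, a nucleotide exchange factor of mortalin, rose by 0.30 in Q20 (adjusted p = 0.0425) and 0.32 in Q91 (adjusted p = 0.0325), and the protease Lonp1 fell by 0.35 in Q20. Serpinh1, the chaperone of collagen, rose by 1.59, 1.86 and 1.93 in Q20, Q91 and Q111. In these lines the mean of Col1a1, of the feeder list, was 7.98, 7.48 and 8.40, against 3.73 in control arrays. Thy1, of the same list, was lower in these lines (4.66, 5.09 and 5.34 against 5.97) but not called. Col1a2 was called higher in Q91 and Q111, and Col3a1, Dcn, Lum, Postn and Pdgfra stayed below 5 in every group mean. The part of feeder cells or of matrix genes in the Serpinh1 rise was not tested. Fkbp5, an HSP90-bound immunophilin, fell in all 4 lines, by 0.52, 0.45, 0.69 and 0.52.

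The knock-out was also set against the mean of the 4 lines, a contrast of group means without the control mean, though the control arrays enter the estimate of the spread. In all, 29 members (49.2%) were called, 10 higher and 19 lower in the knock-out, against 46.7% of all probe sets, 20.1% higher and 26.6% lower. Splits were 12 higher and 17 lower with quantile normalization and 14 and 13 when centred. Beside Hspb11, Bag3 fell by 1.07 ± 0.18 relative to the lines, Dnajc7 by 0.84 ± 0.08 and Dnajb11 by 0.67 ± 0.08. Hspb8 was lower by 1.05 ± 0.18, but all its knock-out arrays lay below the filter and it passed through the knock-in arrays. The size for Hspb8 is therefore uncertain, and its call is not independent of that selection. Higher in the knock-out than in the lines were Dnajc15 (0.72 ± 0.14), Dnajc9 (0.68 ± 0.09), Dnajc6 (0.59 ± 0.20), Hspb1 (0.50 ± 0.15) and Dnajb1 (0.42 ± 0.09), of which Dnajc6 was not called without knock-out replicate 2. In the cytosolic chaperonin, Cct2, Cct3, Cct4 and Cct7 were lower in the knock-out than in the lines (-0.16, -0.22, -0.47 and -0.14), and all but Cct4 were uncalled when centred.

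A slope on repeat number was fitted over the 12 knock-in arrays, which come from 4 lines, 1 for each length. The 3 arrays of a line entered as separate observations, so these p-values do not measure the spread among lines, and length was not separated from line. No member had a slope on CAG repeat number past the threshold, and 0.0445% of all probe sets did. At an unadjusted p below 0.05 there were 3 members, Dnajc6 (-1.05 ± 0.44 per 100 repeats, adjusted p = 0.985 in limma's test), Dnajc21 (-0.43) and Ahsa1 (-0.28). When the 4 lines were compared for any difference (limma's F-test), no member was called, against 0.167% of all probe sets, with 11 members at an unadjusted p below 0.05 and the lowest adjusted p for Bag3 (0.0959). Across the lines, 26 members (44.1%) were called against control in at least 1 and 8 (13.6%) in at least 3, where 41.4% and 12.4% of all probe sets were.

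Calls were read beside the overlap of single arrays. Against control, 10 members of the knock-out had no overlap with the control arrays, 21 in Q20, 7 in Q50, 12 in Q91 and 23 in Q111, where 11%, 26.9%, 11.7%, 21.4% and 27.4% of all probe sets did. Called members that did overlap were Dnajc16 in the knock-out, Hspa1b, Bag3 and Hspb11 in Q20, Hsp90b1 and Dnajc12 in Q50, Dnajc15, Hspb11 and Hspb8 in Q91, and Dnajc15 in Q111. At the filter, the members just inside it were Hspb8 (10 arrays at 5 or more), Dnajc18 (16), Hspb11 (21) and Dnajc16 (22). Just outside lay Dnajc22 and Hspb6 (2 arrays each) and Hspa2, Dnajb2 and Dnajb4 (1 each), of which Hspb6 had group means of 2.70 to 3.33 in knock-out and knock-in arrays and 4.55 in control arrays.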

How the data were processed

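Expression was measured on 24 arrays of mouse embryonic stem cells. The authors deposited log2 values, and the submitters' processing notes name GCRMA, a method that corrects each probe's background from its sequence, normalizes between arrays and summarises probe sets; its version is not given in the sources. Groups came from titles and genotype entries. Members and gene lists were chosen with earlier results of these data known.

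Of 45037 probe sets, 17980 with log2 5 or more on at least 3 arrays entered limma 3.58.1 (R 4.3.3) with a mean per group over 24 arrays (18 residual degrees of freedom). The slope on the longer CAG tract and the F-test used the 12 knock-in arrays. P-values are two-sided and Benjamini-Hochberg adjusted over all 17980, threshold 0.05. Where a gene had several probe sets, the one with the highest mean stood for it. Of the 91 member results called in the 6 contrasts, 58 had other measured probe sets, 99 in all, of which 89 had the same sign, 52 were called with it and 2 were called against it (Hspa4). Names came from the platform annotation, and 3 probe sets of Dnajc19 naming several genes were left out. The fits were tested on simulated data. The number of arrays limits the precision.

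Values per array are given for up to 3 called members with the largest rise and fall in each comparison, and for Hspa8, Hspa1b, Hspa5, Hspa9, Hsp90aa1, Hspd1, Hspe1, Hsph1, Hspb1, Dnajb1, Bag3 and Stip1; the plots also show Hsp90b1, Hspa13, Dnajc10 and Dnaja3, chosen after their values were seen. Alternatives were quantile normalization, median centring, no filter or one at log2 6, array weights, a replicate block, only the compared groups, the second probe set, replicates 1 to 3 or 4 to 6 of knock-out and control alone, and leaving out each array.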

Additional observations from a re-analysis of the deposited data

Results flagged for a closer look

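In the groups of 6, 7 of 118 gene and group combinations had a single array far from the other 5, where chance gives about 1 in 20. Control replicate 4 was the highest array for Hspa1b (9.09) and for Dnajc7 (12.31), and the lowest for Dnajc27 (5.17). Among knock-out arrays, replicate 4 was the lowest for Hspa4 (14.04), replicate 6 the lowest for Hspa13 (8.67), and replicate 1 the lowest for Dnajc10 (10.07) and the highest for Cct2 (15.36).

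For 4 members the knock-out and at least 1 line were called in opposite directions against control, and the knock-out differed from the mean of the lines in limma's test. The difference was -2.08 for Hspb11, -1.07 for Bag3, -0.84 for Dnajc7 and -0.42 for Hspa4, the last with other probe sets that were called the other way in the knock-out.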

How the results depend on the processing

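Of the 91 called member results, 35 kept direction and call under every alternative run, and 4 reversed, all with the second probe set (Hspa4 in the knock-out against control and against the lines, Hspa13 against the lines, and Dnajc3 in the knock-out, at -0.0202). Array weights gave 18 knock-out calls, 17 in Q91 and 6 in the F-test. Replicates 1 to 3 of knock-out and control alone gave 2 calls and replicates 4 to 6 alone gave 4. Q50 gave 3 calls with centring, 3 with no filter and 0 when only its own arrays and the control arrays were fitted. Leaving out each array gave 8 to 10 calls in the knock-out. It gave Q20 8 to 18, Q50 1 to 4, Q91 6 to 12 and Q111 12 to 21 calls, with 27 to 31 against the lines, 0 for the slope and 0 to 1 in the F-test. The causes were not tested. The labels tie replicate numbers to no shared batch, and the numbers were not taken as pairs: over 96 ordered pairs the same-number correlations of deviations ran from -0.41 to 0.46, with no comparison against control above 0.1 in every pair, and 43 were best with their own number. Between lines, all 3 pairs were above 0.1 for Q20 with Q111 (0.39 to 0.46) and for Q50 with Q91 (0.20 to 0.41), a hint from the data that some numbers share a source. The replicate block gave 8 calls in the knock-out, 12 in Q20, 0 in Q50, 10 in Q91, 18 in Q111, 24 against the lines and 0 for the slope and the F-test. Calls absent with it were Dnajc3 and Cct7 in the knock-out, Hspa5, Hspbap1, Dnajc10, Dnajc3 and Hspd1 in Q20, all 5 in Q50, Hspbap1 in Q91 and Dnajc12 in Q111. Dim members near log2 5 (Hspb8, Hspb11, Dnajc16) are limited by signal over background.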
